A study of Mus musculus with 4 samples.

Results

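The antioxidant defense genes described here are Sod1, Sod2, Sod3, Cat, Gpx3, Prdx1, Prdx3, Prdx5, Nfe2l2 and Txnrd1, measured by mRNA-seq in the tibialis anterior (TA), a shin muscle made up mainly of fast fibers, of old and young mice. They were chosen by name, and a gene was taken as a member where its symbol in the deposited values equals one of these names. All 10 were found, each at a single locus, among 20340 gene labels with a value in all 4 samples. Wild-type C57BL/6 mice aged 20 months gave the samples Old 1 and Old 2, and wild-type C57BL/6 mice aged 3 months gave Young 1 and Young 2, with no treatment named for either age. The labels name muscle as the tissue, the study's methods name TA, and the design text speaks of triplicates where the labels hold 2 samples per age. The study calls the sequencing runs of an age independent without saying whether they came from separate, shared or pooled mice, so the tests measure the spread between these samples, which may be technical.

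Superoxide and hydrogen peroxide arise as by-products of respiration in muscle fibers, and cells remove them in steps. Superoxide dismutases turn superoxide into hydrogen peroxide in the cytosol (Sod1), in the mitochondrial matrix (Sod2) and outside the cell (Sod3). Catalase (Cat), glutathione peroxidases such as the secreted Gpx3, and peroxiredoxins then reduce the peroxide, with Prdx1 mainly in the cytosol, Prdx3 in mitochondria and Prdx5 in mitochondria, peroxisomes and cytosol. Thioredoxin reductase 1 (Txnrd1) supplies reducing power to the cytosolic thioredoxin and peroxiredoxin system, and Nfe2l2 encodes NRF2, a transcription factor that binds antioxidant response elements near many of these genes.

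Gpx3 and Txnrd1 share a feature that the choice by name did not use: both are selenoproteins, in which a TGA codon inside the reading frame is read as selenocysteine instead of stop. The coding sequence around that codon is shown for both, from the GENCODE annotation and transcripts of GRCm38, with the TGA in capitals. In Gpx3 the codon lies at chr11:54907256-54907258 on the plus strand, in the first part of the reading frame, with 153 codons between it and the stop. In Txnrd1 it lies at chr10:82896037-82896039 on the plus strand, 1 codon before the stop, and the sequence shown runs to that stop.
Gpx3: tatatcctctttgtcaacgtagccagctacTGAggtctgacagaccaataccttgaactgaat
Txnrd1: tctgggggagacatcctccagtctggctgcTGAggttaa

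Antioxidant response elements were looked for in the RefSeq promoters of GRCm38.p6, 250 bases before to 50 bases after a gene's start, with the core TGACNNNGC on both strands. Promoters were found for 9 of the 10 genes, all but Sod3. The core was present in 4 of the 9, Nfe2l2, Prdx1, Sod1 and Txnrd1, each in 1 of the 11 promoters of these genes. Counted the same way, by gene, it was present in 14.0% of 27025 genes, and by promoter in 12.4% of 32851 promoters of the same length. The 4 matches are shown because these genes can be set beside their values further on. Each is printed from the minus strand with the core in capitals, at chr2:75704885-75704913 for Nfe2l2, chr4:116685456-116685484 for Prdx1, chr16:90220696-90220724 for Sod1 and chr10:82859104-82859132 for Txnrd1. The core starts 240 bases before the start site in Nfe2l2, 133 bases before it in Prdx1, 56 bases before it in Sod1 and 92 bases before 1 of the start sites of Txnrd1. A match is a description of letters and not a binding site.
Nfe2l2: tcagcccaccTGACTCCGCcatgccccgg
Prdx1: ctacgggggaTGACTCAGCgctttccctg
Sod1: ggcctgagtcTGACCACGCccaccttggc
Txnrd1: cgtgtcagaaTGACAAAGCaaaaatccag

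Gpx3 and Sod2 held the largest differences between the ages, in opposite directions, and the bases ahead of their first exons are shown for that reason, from chr11:54902604-54902771 for Gpx3 and chr17:13007589-13007816 for Sod2, both on the plus strand of GRCm38.p6. The letters GGGCGG, the core of a GC box, are in capitals. The stretch of Sod2 holds 4 of them and is 64.0% G or C, while that of Gpx3 holds 0 and is 54.2% G or C. The stretches differ in length, 168 bases for Gpx3 and 228 for Sod2, since each ends at the first exon in GENCODE. That of Gpx3 ends ahead of the RefSeq start at 54902854, and a GGGCGG lies in between, 49 bases before that start. The 4 against 0 therefore depends on where the stretches were cut. Over the whole promoter window and both strands, GGGCGG was found in all 9 genes with a promoter, Gpx3 included (past the end of the stretch shown), and in 38.2% of all genes and 35.7% of all promoters; this search was chosen after the values had been seen. Neither promoter held the antioxidant response element core, and GTAAACA, a core bound by FoxO factors, was found in 0 of the 9 genes, in 4.05% of all genes and in 3.65% of all promoters.
Gpx3: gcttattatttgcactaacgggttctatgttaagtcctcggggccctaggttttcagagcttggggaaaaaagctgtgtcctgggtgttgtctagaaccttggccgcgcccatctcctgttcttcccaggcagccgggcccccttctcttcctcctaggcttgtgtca
Sod2: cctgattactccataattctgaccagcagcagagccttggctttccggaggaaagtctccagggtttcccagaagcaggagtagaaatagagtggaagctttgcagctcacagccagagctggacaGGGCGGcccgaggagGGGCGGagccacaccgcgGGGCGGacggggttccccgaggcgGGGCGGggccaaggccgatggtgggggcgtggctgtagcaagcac

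Values are FPKM, which is the number of sequenced fragments scaled by transcript length and by the mapped fragments of a sample, so that levels of different genes can be set side by side. Samples of one age differed by a common factor. Over genes at 30 to 100 FPKM, the median log2 ratio was 0.975 for Old 1 over Old 2 and 0.956 for Young 2 over Young 1, with robust SDs across genes of 0.0464 and 0.047, against 0.393 between Old 1 and Young 2. For the test, each sample was therefore divided by a scale factor, 1.56 for Old 1, 1.58 for Young 2, 0.638 for Old 2 and 0.656 for Young 1. The factor was larger at low levels, where most genes lie, and at 30 to 100 FPKM the scaled values had a median log2 ratio of -0.319 for Old 1 over Old 2 and -0.308 for Young 2 over Young 1. This remainder is part of the spread within an age that enters the test. For that reason, ratios of the deposited values are also given between samples of like scale, Old 1 over Young 2 and Old 2 over Young 1, as a description. FPKM holds no counts, and neither depth nor counting error can be given.

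Of the 10 antioxidant genes, Gpx3 was about 3-fold higher in old than in young TA muscle, Sod2 about 2-fold lower and Prdx3 about 1.5-fold lower, in both pairs of samples of like scale. Sod1, Cat, Prdx1, Prdx5, Nfe2l2 and Txnrd1 lay within ±0.2 log2 of equality on scaled values, a range that held 46.5% of all genes tested. All 10 passed the filter on low values, at least 1 FPKM in at least 2 samples. With limma and Benjamini-Hochberg adjustment over the 10266 genes tested, 0 of the 10 passed an adjusted p of 0.05 in either direction, where 0.234% of all genes passed as higher and 0.214% as lower. At an unadjusted p under 0.05, Gpx3 passed as higher and Sod2 as lower, where 8.4% of all genes passed as higher and 9.68% as lower. The median log2 fold change of the 10 genes was -0.01, beside a median of 0.00 over all genes tested, and the median of its absolute size was 0.117, beside 0.22.

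**Figure D1:**
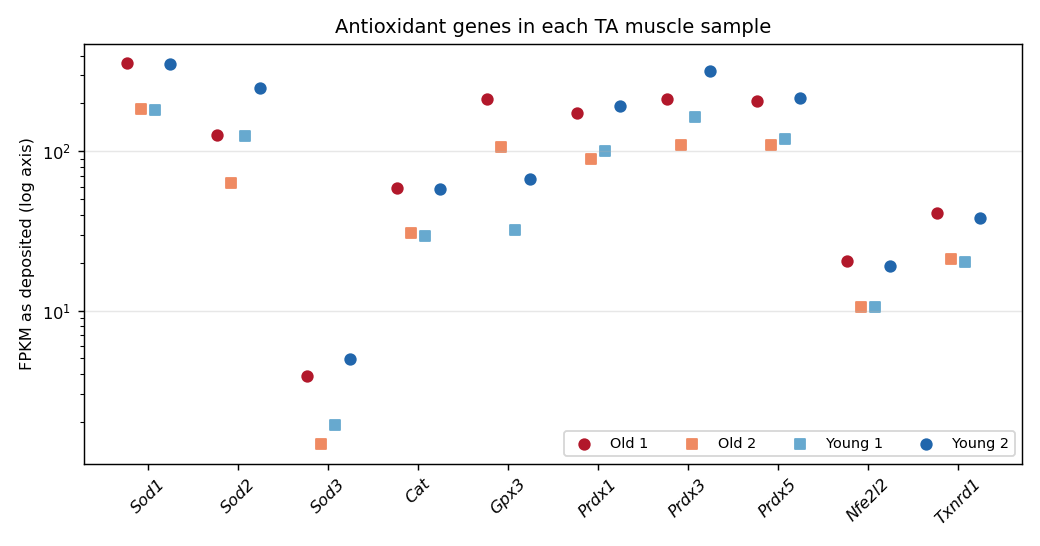
FPKM as deposited (log axis) of the 10 antioxidant genes, 1 point per TA muscle sample, with circles for Old 1 and Young 2 and squares for Old 2 and Young 1. Circles lie above squares of the same age throughout, and among samples drawn with the same shape Gpx3 is higher and Sod2 and Prdx3 are lower in the old ones.

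Sod1, which encodes the copper and zinc superoxide dismutase of the cytosol (chr16:90220697-90228756, mm10), had the highest level of the 10 genes in every sample. It was at 359 FPKM in Old 1 and 185 in Old 2, against 183 in Young 1 and 354 in Young 2. The ages overlapped, and each old sample was within 1.33% of the young sample of like scale. The log2 fold change on scaled values was 0.04 ± 0.22 (SE, n = 2 per age; 95% interval -0.58 to 0.67; limma adjusted p = 0.989). The width of that interval leaves differences of about 1.5-fold either way undecided by the test.

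Sod2, the manganese superoxide dismutase of the mitochondrial matrix (chr17:13007839-13023628), was at 128 FPKM in Old 1 and 63.0 in Old 2, against 124 in Young 1 and 251 in Young 2. As deposited, Old 1 lay between the young samples, while on scaled values (81.7, 98.7, 189 and 159 in the same order) both old samples lay below both young ones. The ratios were 0.508 for Old 1 over Young 2 and 0.507 for Old 2 over Young 1, so that both old samples held about 0.5 times the level of the young sample of like scale. The log2 fold change was -0.94 ± 0.21 (SE, n = 2 per age; 95% interval -1.53 to -0.36), with an unadjusted p of 0.0114 and an adjusted p of 0.165 from limma. An exact permutation test of 2 samples against 2 cannot give a two-sided p below 0.33, and gave that value.

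Sod3, the superoxide dismutase secreted into the matrix around cells (chr5:52363804-52369738), was the lowest of the 10 genes in every sample, at 3.88 FPKM in Old 1 and 1.44 in Old 2, against 1.91 in Young 1 and 4.94 in Young 2. The ratios were 0.785 and 0.755 in the pairs of like scale, and both old samples were below both young samples on scaled values. The log2 fold change was -0.26 ± 0.10 (SE; 95% interval -0.53 to 0.02; adjusted p = 0.298). At this level, the common factor between samples of one age was larger than at higher levels, with a median log2 ratio of 1.42 for Old 1 over Old 2 at 1 to 3 FPKM. Ccs, the chaperone that loads copper into Sod1, completed the list of genes for superoxide dismutation, with a log2 fold change of -0.44 (adjusted p = 0.249).

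Gpx3, the glutathione peroxidase of plasma (chr11:54902854-54910382), was at 212 FPKM in Old 1 and 106 in Old 2, against 31.9 in Young 1 and 66.9 in Young 2. The lower of the old samples was above the higher of the young ones even as deposited, and on scaled values the 4 samples stood at 136, 166, 48.6 and 42.5. Ratios of 3.17 for Old 1 over Young 2 and 3.33 for Old 2 over Young 1 were the largest of the 10 genes. The log2 fold change was 1.70 ± 0.20 (SE, n = 2 per age; 95% interval 1.13 to 2.28), a fold of 3.26, with an unadjusted p of 0.0014 and an adjusted p of 0.0929 from limma. Gpx3 was thus short of the threshold in the test over all genes, and the exact permutation test gave its smallest p of 0.33. With cyclic loess normalization, an alternative added after the values had been seen that lets the scale vary with level, the log2 fold change was 1.70 and the adjusted p was 0.00526; the same setting called 11.1% of all genes as higher and 13.6% as lower.

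**Figure D2:**
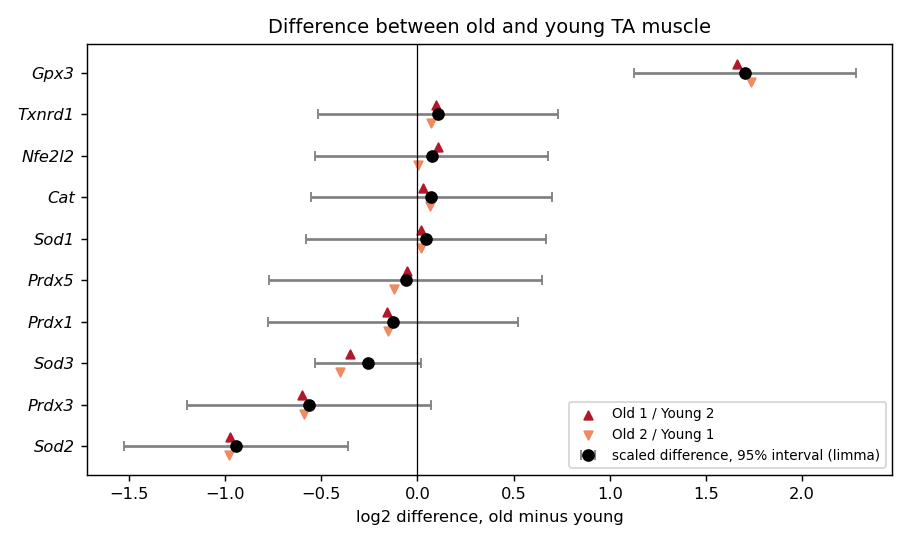
Log2 difference between old and young TA muscle for the 10 antioxidant genes, with the scaled difference and its 95% interval from limma (black point and bar, n = 2 per age) and the log2 ratios of the deposited FPKM in the pairs of like scale (triangles). The interval of Gpx3 lies above 0 and that of Sod2 below 0, before adjustment for the 10266 genes tested, and the intervals of the other 8 genes include 0.

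Prdx3, the peroxiredoxin of mitochondria (chr19:60864066-60874538), was at 212 FPKM in Old 1 and 109.5 in Old 2, against 165 in Young 1 and 321 in Young 2. Both ratios of old to young samples of like scale were below 1, at 0.661 and 0.665, and the scaled values of the old samples (136 and 172) were below those of the young samples (251 and 204). The log2 fold change was -0.56 ± 0.22 (SE; 95% interval -1.20 to 0.07; adjusted p = 0.315), which did not pass the test. With cyclic loess normalization the log2 fold change was -0.53 with an adjusted p of 0.0184 for Prdx3, and -0.93 with an adjusted p of 0.00532 for Sod2.

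Prdx1, the cytosolic peroxiredoxin (chr4:116684965-116701746), was at 174 FPKM in Old 1 and 90.1 in Old 2, against 100.2 in Young 1 and 194 in Young 2, and Prdx5 (chr19:6906819-6909645) was at 209, 109.6, 119 and 216. Both genes overlapped between the ages. The ratios in the pairs of like scale were 0.897 and 0.900 for Prdx1 and 0.964 and 0.919 for Prdx5, so that all 4 were within 1.5-fold of equality. The log2 fold changes were -0.13 ± 0.23 (SE; 95% interval -0.78 to 0.52; adjusted p = 0.884) for Prdx1 and -0.06 ± 0.25 (SE; 95% interval -0.77 to 0.65; adjusted p = 0.984) for Prdx5. A label at the same coordinates as Prdx1, AV051173, was at 1.55 FPKM in Old 1 and listed at 0 in the other samples, and how reads were split between the labels is not stated. Prdx1 also has a pseudogene copy, so reads of near-identical sequence may be shared.

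Cat, the peroxisomal enzyme that breaks hydrogen peroxide down to water and oxygen (chr2:103453904-103485153), was at 58.9 FPKM in Old 1 and 30.7 in Old 2, against 29.3 in Young 1 and 57.8 in Young 2. The ages overlapped and the ratios were 1.02 and 1.05. The log2 fold change was 0.07 ± 0.22 (SE; 95% interval -0.55 to 0.70; adjusted p = 0.964).

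Nfe2l2 (chr2:75675519-75704641), whose protein is controlled largely by its breakdown rather than by its mRNA, was at 20.4 FPKM in Old 1 and 10.5 in Old 2, against 10.5 in Young 1 and 18.9 in Young 2. Its ratios of 1.08 and 1.00 were near equality, and the log2 fold change was 0.07 ± 0.21 (SE; 95% interval -0.53 to 0.68; adjusted p = 0.959). Txnrd1 (chr10:82833951-82897724), which NRF2 is known to induce, was at 40.8, 21.1, 20.1 and 38.2 FPKM in the same order. Its ratios were 1.07 and 1.05, with a log2 fold change of 0.11 ± 0.22 (SE; 95% interval -0.52 to 0.73; adjusted p = 0.912). Eid3, a label at the same coordinates as Txnrd1, was at 1.61 FPKM in Old 1 and 1.18 in Young 2 and listed at 0 in the other samples. The 4 genes with an antioxidant response element core in their promoters, shown above, were Nfe2l2, Txnrd1, Sod1 and Prdx1, with log2 fold changes between -0.13 and 0.11.

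Counted together on scaled values, 1 of the 10 genes, Gpx3, had the lower old sample above the higher young one, where 23.7% of all genes tested were so placed. Both old samples were below both young samples for 3 of the 10, Sod2, Sod3 and Prdx3, where the share over all genes was 23.5%. A difference of at least 1.5-fold in both pairs of like scale was found for Gpx3 in the higher direction, beside 6.01% of all genes, and for Sod2 and Prdx3 in the lower direction, beside 8.48%. These shares of 10% and 20% rest on 1 and 2 genes. With quantile normalization, Gpx3 passed as higher (log2 fold change 1.71, limma adjusted p = 0.0103) beside 1.16% of all genes, and Sod2 passed as lower (-0.92, adjusted p = 0.0313) beside 1.83%. When the test took only the 7228 genes with at least 1 FPKM in every sample, the same 2 genes passed, Gpx3 beside 9.8% of genes higher and Sod2 (adjusted p = 0.0045) beside 8.79% lower. Over the alternatives with 1 way of processing changed, the adjusted p ran from 8.29e-09 to 1.0 for Gpx3 and from 0.0045 to 1.0 for Sod2, the highest without scaling. Both lowest values came from the test of genes with at least 1 FPKM in every sample. There limma shared the variance across genes, with 14500 total degrees of freedom against 3.79 in the main fit. The SE of Gpx3 was 0.27 there, against 0.20 in the main fit, so the smaller p does not rest on a tighter estimate.

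**Figure D3:**
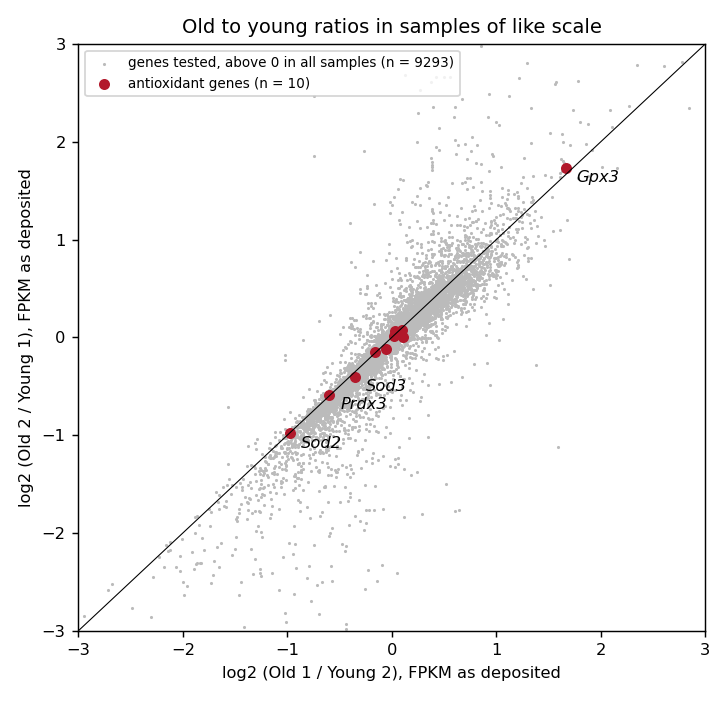
Log2 ratios of deposited FPKM, Old 1 over Young 2 on the horizontal and Old 2 over Young 1 on the vertical axis, for 9293 tested genes above 0 in all samples (grey, 73 of them outside the axes) and the 10 antioxidant genes (red); the line marks equal ratios. Sod2, Prdx3, Sod3 and Gpx3 lie near the line and away from 0, and the other 6 antioxidant genes lie near 0.

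The order of the levels within a sample needs no scaling. In both young samples it ran Sod1, Prdx3, Sod2, Prdx5, Prdx1, Gpx3, Cat, Txnrd1, Nfe2l2, Sod3. In the old samples Sod2 stood at rank 6 instead of 3, behind Prdx1, and Gpx3 at rank 3 in Old 1 and rank 4 in Old 2 instead of 6. Prdx3, Prdx5 and Gpx3 were neighbours in the old samples, between 209 and 212 FPKM in Old 1 and between 106 and 109.6 in Old 2, with a different order in each, and are not told apart there. Cat, Txnrd1, Nfe2l2 and Sod3 held ranks 7 to 10 in every sample.

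Ratios between 2 genes of the same sample are likewise free of the single scale factor, but not of its change with level where the 2 genes differ in level. Sod1, a gene whose level was close between the ages, served as the denominator, a choice made after its values had been seen. Sod2 was at 0.356 of Sod1 in Old 1 and 0.340 in Old 2, against 0.680 in Young 1 and 0.709 in Young 2. Prdx3 was at 0.591 and 0.592 of Sod1 in the old samples and at 0.903 and 0.907 in the young ones. Gpx3 was at 0.591 and 0.573 in the old and at 0.175 and 0.189 in the young samples. For these 3 genes the difference between the ages was far larger than that between samples of one age: the log2 differences were -0.997 for Sod2, -0.61 for Prdx3 and 1.68 for Gpx3, with SDs within an age of at most 0.081. The exact permutation test gave p = 0.33 for each, the smallest that 2 against 2 can give.

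Of the other genes, Prdx1 was at 0.484 and 0.487 of Sod1 in the old samples and at 0.548 and 0.547 in the young ones, a log2 difference of -0.17 without overlap. Prdx5 differed by -0.11, Txnrd1 by 0.06 and Cat by 0.03 on the same scale, also without overlap between the ages. For Prdx1, Prdx5, Txnrd1 and Cat the exact permutation test gave p = 0.33 as well. A small spread within an age was general: at 30 to 100 FPKM the robust SDs were 0.0464 and 0.047, against 0.393 between Old 1 and Young 2. The share of all genes without overlap relative to Sod1 was not computed. Lack of overlap is therefore a description only, for Sod2, Prdx3 and Gpx3 as well. Nfe2l2 and Sod3 overlapped. Sod3 was at 0.0108 of Sod1 in Old 1 and 0.00779 in Old 2, and at 0.0105 in Young 1 and 0.0139 in Young 2. Its log2 difference of -0.40 was the largest among these 6 genes, beside SDs within an age of 0.334 and 0.294. The median log2 ratio of Old 1 over Old 2 was 1.42 at 1 to 3 FPKM, against 1.01 at 100 to 300 FPKM. The ratio of Sod3 to Sod1 therefore keeps part of the common factor, which enters these SDs and the overlap. In both pairs of like scale, this ratio was lower in the old sample.

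**Figure D4:**
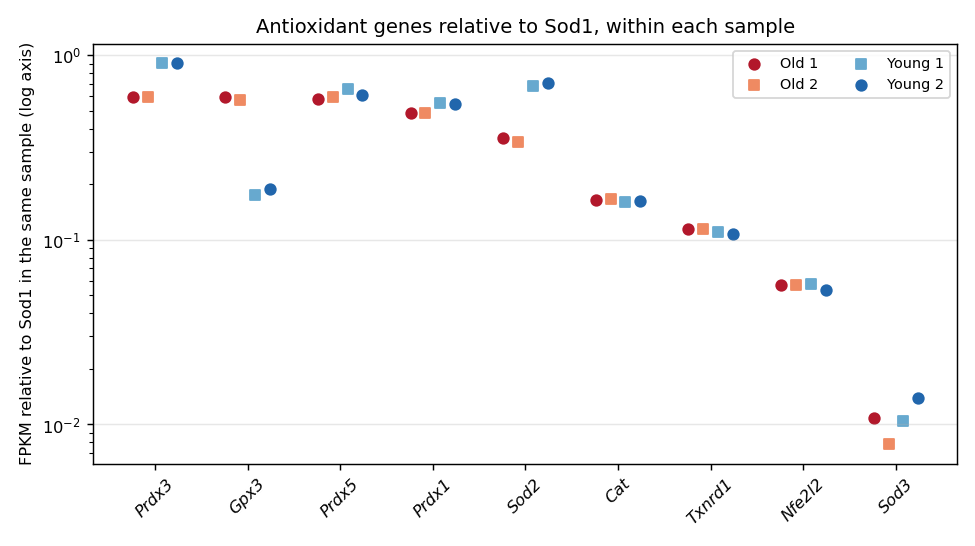
FPKM of 9 antioxidant genes divided by that of Sod1 in the same sample (log axis), 1 point per sample, with the symbols of the plot of FPKM by sample. Gpx3 is higher and Sod2 and Prdx3 are lower relative to Sod1 in both old samples, from 0.175 and 0.189 to 0.591 and 0.573 for Gpx3, and Prdx5, Prdx1, Cat, Txnrd1 and Nfe2l2 keep closer ratios, while Sod3 overlaps between the ages with a wide spread within each.

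Among the peroxiredoxins, Prdx3 differed from Prdx1. Prdx3 was 1.22 and 1.22 times Prdx1 in Old 1 and Old 2, and 1.65 and 1.66 times Prdx1 in Young 1 and Young 2. Prdx3 relative to Prdx5 was 1.02 and 0.999 in the old samples and 1.38 and 1.49 in the young ones. Between the peroxide-removing enzymes Gpx3 and Cat, the ratio was 3.60 and 3.46 in the old samples and 1.09 and 1.16 in the young ones. The mitochondrial pair also differed within itself, since Sod2 was at 0.602 and 0.575 of Prdx3 in old and at 0.753 and 0.782 in young samples. Each of these 4 ratios was without overlap between the ages. For each, the exact permutation test gave p = 0.33, the smallest that 2 against 2 can give. No share over all pairs of genes was computed, so the lack of overlap is a description only. Prdx6, a further peroxiredoxin, had ratios of 0.688 and 0.690 in the pairs of like scale, near the 0.661 and 0.665 of Prdx3. The difference between Prdx3 and Prdx1 is thus given for these 2 genes and not for a compartment.

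Sod2 and Prdx3 act in the mitochondrial matrix, and genes of the respiratory chain, whose complexes sit in the inner mitochondrial membrane, were set beside them. Of 39 chain genes listed, 32 were tested, and 0 passed the adjusted threshold in either direction in limma, while 13 (40.6%) passed an unadjusted p under 0.05, all lower in old, beside 9.68% of all genes. Ndufs7 and Atp5d were listed at 0 in Old 2 and Young 1, and the other 30 had a median log2 fold change of -0.43, beside 0.00 over all genes tested. All 30 had lower values in old in both pairs of like scale, 10 of them by at least 1.5-fold, beside 8.48% of all genes. No share of all genes was computed for direction alone. Sod2 at -0.94 lay below all but 2 of the 30, Cyc1 at -1.09 and Atp5g1 at -1.19, Prdx3 at -0.56 lay below all but 11, and Prdx5 at -0.06 lay above all 30. The part of mitochondrial content in the differences of Sod2 and Prdx3 was not tested.

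Other genes of antioxidant defense were taken from 8 hand-written lists, holding 89 genes when each is counted once, of which 74 had a value and 71 were tested. With limma, 0 of the 71 passed the adjusted threshold, while 6 (8.45%) passed as higher and 10 (14.1%) as lower at an unadjusted p under 0.05, beside 8.4% and 9.68% of all genes. Without the 10 genes described above, 61 were tested, with a median log2 fold change of -0.06. Of the 60 with both ratios, 24 were higher and 32 lower in old in both pairs of like scale, and 3 were higher and 6 lower by at least 1.5-fold, beside 6.01% and 8.48% of all genes tested. The lists were thus mixed in direction. Since none passed the adjusted threshold, the list genes named beside the 10, Ccs and the chain genes included, were chosen after their values were seen.

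In the list for removal of peroxides, 9 of 13 genes were tested, and the median over the 8 of them above 0 in every sample was -0.09. Prdx6, which also reduces oxidized phospholipids, had a log2 fold change of -0.50 (adjusted p = 0.366) and Gpx8, a peroxidase of the endoplasmic reticulum, one of -0.62 (adjusted p = 0.197). Gpx4, which reduces lipid peroxides, was at 806 FPKM in Old 1 and 962 in Young 2 and listed at 0 in Old 2 and Young 1. It lies in 1 merged locus with 46 loci in all, and all 46 are listed at 0 in those samples, so no fold is given for Gpx4 and it is left out of that median.

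For thioredoxins and glutaredoxins, 13 of 14 genes were tested, with a median of -0.06. Txn2, the mitochondrial thioredoxin that serves Prdx3, had a log2 fold change of -0.52 (adjusted p = 0.334), and Txn1, its cytosolic counterpart, one of 0.03 (adjusted p = 0.999). Of the other mitochondrial genes in this list, Glrx5 was at -0.51, Txnrd2 at -0.06 and Glrx2 at -0.02. Glrx, not counted among the mitochondrial genes, was at -0.61. The list was thus mixed with respect to mitochondria, and none of these genes passed the adjusted threshold. Txnip, which binds and inhibits thioredoxin, was at 491 FPKM in Old 1 and 207 in Old 2, against 95.1 in Young 1 and 195 in Young 2. Its ratios were 2.52 and 2.18, with a log2 fold change of 1.25 (adjusted p = 0.109), which did not pass the test.

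Of the genes for synthesis and use of glutathione, the cofactor of glutathione peroxidases, 12 of 17 were tested, with a median of 0.20. In both pairs 10 of these were higher in old, a count for which no share of all genes was computed. By at least 1.5-fold, 1 was higher in both pairs, beside 6.01% of all genes. Gstm2, a glutathione transferase, had ratios of 2.18 and 2.18 and a log2 fold change of 1.13 (adjusted p = 0.156). The genes that supply NADPH had a median of -0.07 over 8 tested genes, with Idh2, the mitochondrial isocitrate dehydrogenase, at 0.74 (adjusted p = 0.231) and Idh1, the cytosolic one, at -0.69 (adjusted p = 0.188). None of these passed the adjusted threshold.

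Regulators of NRF2 (9 of 10 tested, median 0.05) ranged from -0.69 for Mafk, a small Maf partner of NRF2, to 0.55 for Cul3, part of the ligase that marks NRF2 for breakdown, with adjusted p of 0.187 and 0.319. Known NRF2 targets (14 of 22 tested, median -0.03) ranged from -0.47 to 0.53, and none differed by 1.5-fold in both pairs. Genes for metal handling and methionine repair had a median of -0.06 over 12 tested genes. Of the genes that can make or limit reactive oxygen species, 8 of 10 had a value and 3 of these reached the filter. Xdh, xanthine dehydrogenase, was at -0.73 (adjusted p = 0.132), Ucp2, a mitochondrial carrier, at -0.77 (adjusted p = 0.1) and its relative Ucp3 at 0.22 (adjusted p = 0.637).

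**Figure D5:**
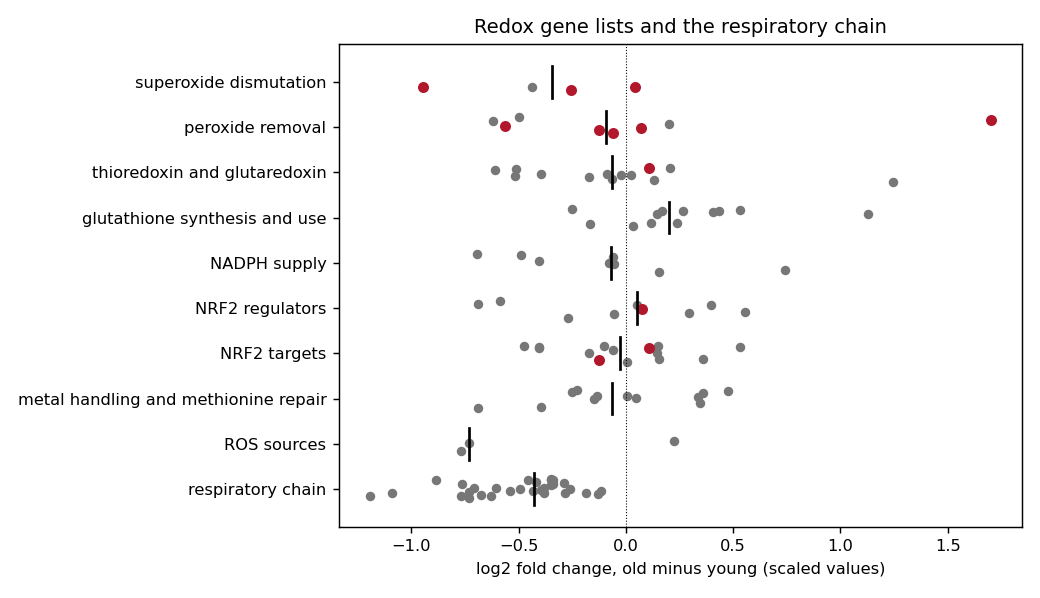
Log2 fold change, old minus young, on scaled values for tested genes of 9 redox lists and of the respiratory chain, 1 point per gene, with the 10 antioxidant genes in red and the median of the plotted genes as a bar; genes listed at 0 in Old 2 or Young 1 are left out, and a gene may stand in more than 1 list. The 30 plotted chain genes all lie below 0, with a median of -0.43, and the medians of the 9 redox lists lie between -0.73 and 0.20.

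These are whole muscles, in which fewer cells of a type and less RNA per cell cannot be told apart, and genes of other fibers and cells differed between the ages alongside the antioxidant genes. Of 6 genes of slow fibers, 5 were tested, namely Myh7, Tnnt1, Tnni1, Tnnc1 and Myl2. All 5 passed the threshold as higher in old muscle (median log2 fold change 3.70). Their summed FPKM was 1167 in Old 1 and 421 in Old 2 against 27.9 in Young 1 and 73.0 in Young 2. None of these 5 markers was at 0. Of 10 genes of fast fibers, the main fibers of TA, 8 were tested. Tnnt3, listed at 0 in both old samples, passed the threshold as lower, Myh1 was listed at 0 in Young 1 and Young 2, and Myh4 was at 0 throughout. A listed 0 may be a failed estimate, since Gpx4, Ndufs7 and Atp5d are listed at 0 as well, so that no lower or higher expression is read from these 3 fast-fiber genes. The summed FPKM of the fast-fiber genes ran from 15830 to 107600 in old and from 21040 to 87520 in young muscle. The label of Hba-a1 and Hba-a2, which encode the alpha chain of hemoglobin, was at 607 and 277 FPKM in the old and 39.5 and 88.6 in the young samples and passed the threshold as higher (adjusted p = 0.0449), while Slc4a1, a membrane protein of red cells, was at most at 0.138 FPKM. Whether slow fibers or blood have a part in the level of Gpx3, Sod2 or Prdx3 was not tested.

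Markers of endothelial cells (7 tested, median -0.24), macrophages (6 tested, median -0.52), fibroblasts (7 tested, median -0.16) and adipocytes (5 tested, median 0.26 over the 4 above 0 in every sample) gave 0 calls. Their summed FPKM ran from 43.4 to 85.8 in old and 57.1 to 110.4 in young samples for endothelial markers, from 10.98 to 29.7 and 18.6 to 47.0 for macrophage markers, from 102 to 200 and 141 to 279 for fibroblast markers, and from 168 to 447 and 184 to 501 for adipocyte markers. All 6 macrophage markers were lower in old in both pairs of like scale, a count for which no share of all genes was computed. By at least 1.5-fold, 3 of them were lower, beside 8.48% of all genes. Of these 3, Cd68 and Mrc1 were near the floor, at 0.105 and 0.663 FPKM in Old 2. Among the fibroblast markers, the collagen genes Col1a1 (log2 fold change -1.95, adjusted p = 0.0704), Col1a2 (-1.53, adjusted p = 0.105) and Col3a1 (-1.40, adjusted p = 0.109) were opposite to Dcn (0.32) and Dpt (0.23). Of the 4 adipocyte markers with both ratios, 3 were higher and 1 lower in old in both pairs, counts for which no share of all genes was computed. Adipoq, a hormone of adipocytes, had ratios of 1.97 and 2.17, the largest of the 4. Fabp4, the lower one, had ratios of 0.906 and 0.899. Cfd, another adipocyte gene, was listed at 0 in Old 2 and Young 1. Their part in the values of Gpx3, Sod2, Sod3 and Prdx3 was not tested either.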

How the data were processed

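The 4 samples of TA muscle mRNA, 2 per age, were grouped by the age in their labels. The authors trimmed the reads, took out PCR duplicates with programs of their own, aligned the rest to mm10 with TopHat2 2.0.10 using RefSeq genes as a guide, and deposited the FPKM of each locus, computed with Cufflinks for each sample on its own. Taking out duplicates can lower the values of abundant genes most. The labels also name Cuffdiff 2.1.1, which needs aligned reads and was not repeated. With chromosomes sorted as text, the last complete line lay on chromosome 7 in Old 1 and Young 2 and on chromosome 8 in the others, and 1 incomplete line after it was left out. Genes past that point were not analysed here, and counts over all genes cover the loci before it, of which 20605 had a value in all 4 samples. Loci of one symbol were summed.

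FPKM values were divided by 1 factor per sample, the median ratio to the geometric mean over genes above 0 in all 4 samples. The difference between ages in log2(scaled FPKM + 1) was tested two-sided with limma (version 3.58.1, R version 4.3.3), with eBayes fitting a trend of the variance on level. The 10266 genes that reached 1 FPKM in 2 or more samples were tested, and p-values were adjusted over them after Benjamini and Hochberg, with a threshold of 0.05. Fold changes are on the log2(scaled FPKM + 1) scale, which understates those of low genes. Exact permutation tests were two-sided. The pairs of like scale were taken from the scale factors. The pseudocount, the filter, the scaling, limma's trend, the choice of locus, the replicate block and each sample in turn were varied. Python 3.11.15 with numpy 2.4.6, pandas 2.3.3, matplotlib 3.10.9 and scipy 1.17.1 was used for the rest.

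The genes named are the 10 antioxidant genes, list genes that passed the threshold, and some of the defining markers of fibers and cell types that differed with age. Other list genes named, markers included, were chosen after their values were seen. The 10 genes and all lists were chosen with earlier results of these data known. List genes without a value, such as Gpx1, Prdx2, Keap1 and Hmox1, were not analysed here.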

Additional observations from a re-analysis of the deposited data

How the results depend on the processing

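Depth is unknown, n is 2 per age, and samples of one age may not be separate animals. The count of genes called higher and lower in old moved from 24 and 22 to 119 and 188 with quantile normalization, 37 and 40 with a pseudocount of 0.1, 6 and 4 with no filter on low values, 708 and 635 among genes of at least 1 FPKM in every sample, 7 and 4 in limma without a trend, and 1135 and 1395 with cyclic loess normalization, which was added after seeing the data. With no scaling, 13 were called lower. Higher and lower calls were 440 and 554 without Old 1, 51 and 71 without Old 2, 157 and 385 without Young 1, and 414 and 490 without Young 2. The antioxidant genes called higher and lower were 1 and 1 with quantile normalization and in the test of genes above that minimum throughout (Gpx3 and Sod2). They were 1 and 2 with cyclic loess normalization (also Prdx3, whose adjusted p otherwise ran up to 1.0, without scaling). On leaving out 1 sample, the log2 fold change of Gpx3 was 1.85 without Old 1, 1.56 without Old 2, 1.81 without Young 1 and 1.61 without Young 2. Each of these fits leaves 1 age with a lone sample, which is assumed to vary like the samples of the other age. Their total degrees of freedom in limma were 7840, 15.0, 63.8 and 7830 in the same order, against 3.79 in the main fit. The SE of Gpx3 ran from 0.40 to 0.54 in them, against 0.20 in the main fit. The counts of calls without 1 sample are therefore not comparable with that of the main fit.

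Over 14 alternatives the log2 fold change ran from 1.56 to 1.85 for Gpx3, from -1.08 to -0.81 for Sod2, from -0.74 to -0.40 for Prdx3 and from -0.34 to -0.20 for Sod3. The 6 genes near 0 turned sign: Sod1 was at -0.011 with quantile normalization, and on leaving out 1 sample Sod1 ran from -0.13 to 0.21, Cat from -0.10 to 0.24, Prdx1 from -0.30 to 0.043, Prdx5 from -0.26 to 0.15, Nfe2l2 from -0.11 to 0.27 and Txnrd1 from -0.063 to 0.27. No cause of these changes was tested.

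The labels give both ages the numbers 1 and 2. Over 10266 genes, the deviations of same-numbered samples from their group means correlated at -0.906 on scaled values. Old 1 and Young 2 are the samples of high scale, and the remainder left by scaling had opposite signs in same-numbered samples. The correlation therefore cannot show whether the numbers pair the samples. With the replicate number as a block, 98 genes were called higher and 118 lower, with 0 antioxidant genes in either direction. With the crossed pairs as a block (Old 1 with Young 2, Old 2 with Young 1), added after seeing the data, 3300 genes were called higher and 3336 lower, 2 and 4 of them antioxidant genes.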
